A study of Arabidopsis thaliana with 14 samples.

Results

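ER bodies are spindle-shaped compartments of the endoplasmic reticulum that Brassicales such as Arabidopsis thaliana form in roots, in the epidermis of young seedlings and in wounded leaves. They store β-glucosidases apart from their glucoside substrates, and damage to the cell brings enzyme and substrate together and lets the enzymes bind jacalin-related lectins into large complexes, a chemical defence against herbivores and microbes. The bHLH factor NAI1 drives many genes of this system in seedlings, whereas the β-glucosidase BGLU18 belongs mainly to the ER bodies that wounding and jasmonate induce in leaves, and is also known for releasing free abscisic acid from its glucose ester under dehydration. The genes described here are the 10 loci NAI1 (AT2G22770), PYK10 (AT3G09260, also called BGLU23), BGLU21 (AT1G66270), BGLU22 (AT1G66280), BGLU18 (AT1G52400), MEB1 (AT4G27860), MEB2 (AT5G24290), PBP1 (AT3G16420, also called JAL30), JAL33 (AT3G16450) and JAL35 (AT3G16470, JR1 in the gene table). They are a fixed set of loci, taken with earlier results of these data known, from 25433 genes with a probe on the array. They had 28 of the 43603 probes, and all 10 were among the 18309 genes bright enough to be tested.

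Total RNA of whole seedlings was labelled in a single colour and hybridised to 14 Agilent arrays. The 4 groups were wild type (Col-0) on control plates (4 arrays), wild type on plates infused with polyethylene glycol at -1.2 MPa (4 arrays), and seedlings carrying 35S:YFP-AFL1 in the Col-0 background on the same kinds of plate (3 arrays each). All seedlings had grown for 7 days on Murashige-Skoog agar in continuous light before the transfer and were taken 10 h after it, so that the controls had been moved as well. The transgene is a yellow fluorescent protein fused to At14a-Like1 and driven by the 35S promoter, which is active in most tissues; the labels do not give the number of independent lines. Nothing in the labels says that replicates came from separate cultures, so the p-values here speak only for the spread among these arrays, part or all of which may be technical.

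Signals are given as relative log2 signal, the log2 of the scanner's processed signal minus that of the array's 75th percentile, so that 0 is the signal of the probe at that percentile. These values depend on the probe and do not rank genes against each other. A gene was called higher or lower when limma's Benjamini-Hochberg adjusted p over the 18309 genes was under 0.05. The 75th percentile ran from 796.2 to 1591 over the arrays, 0 spots were saturated, and correlations across genes between arrays of the same group were 0.9365 to 0.989. The relative log2 signal of AFL1 was -0.55 to 0.66 in wild-type controls and 2.08 to 2.51 in 35S:YFP-AFL1 controls, so that the groups did not overlap. At low water potential AFL1 was at 3.33 to 4.08 in wild type and 3.82 to 4.08 in 35S:YFP-AFL1, so its level did not separate the genotypes there. All 35S:YFP-AFL1 arrays lay on slides 4 and 5, each with wild-type replicate 1 of the same treatment, and the other wild-type arrays lay on slides 1 to 3.

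Most of these genes had lower signal at low water potential than in controls, in both genotypes. In wild type 6 of the 10 were called lower (BGLU18, PYK10, MEB1, PBP1, JAL33 and JAL35) and 0 higher, where 33.4% of all genes tested were called lower and 30.7% higher. In 35S:YFP-AFL1 6 of the 10 were called lower (PYK10, NAI1, MEB1, MEB2, PBP1 and JAL33) and 0 higher, against 33.3% and 30.1% of all genes. The 10 genes had a median log2 difference of -0.60 in the wild-type comparison and -0.77 in that of 35S:YFP-AFL1, where the medians over all genes were -0.032 and -0.036. PYK10, MEB1, PBP1 and JAL33 were called lower in both genotypes. With the slide as a block the wild-type response is the difference within slide 2, the only slide with both wild-type treatments, with 1 array of each. The 35S:YFP-AFL1 response is then also a value set through slide 2, since its treatments lay on separate slides. In 35S:YFP-AFL1 the calls of PYK10, NAI1, MEB1 and MEB2 were lost with that block, leaving PBP1 and JAL33. The comparisons of the 2 genotypes use separate control arrays.

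**Figure D1:**
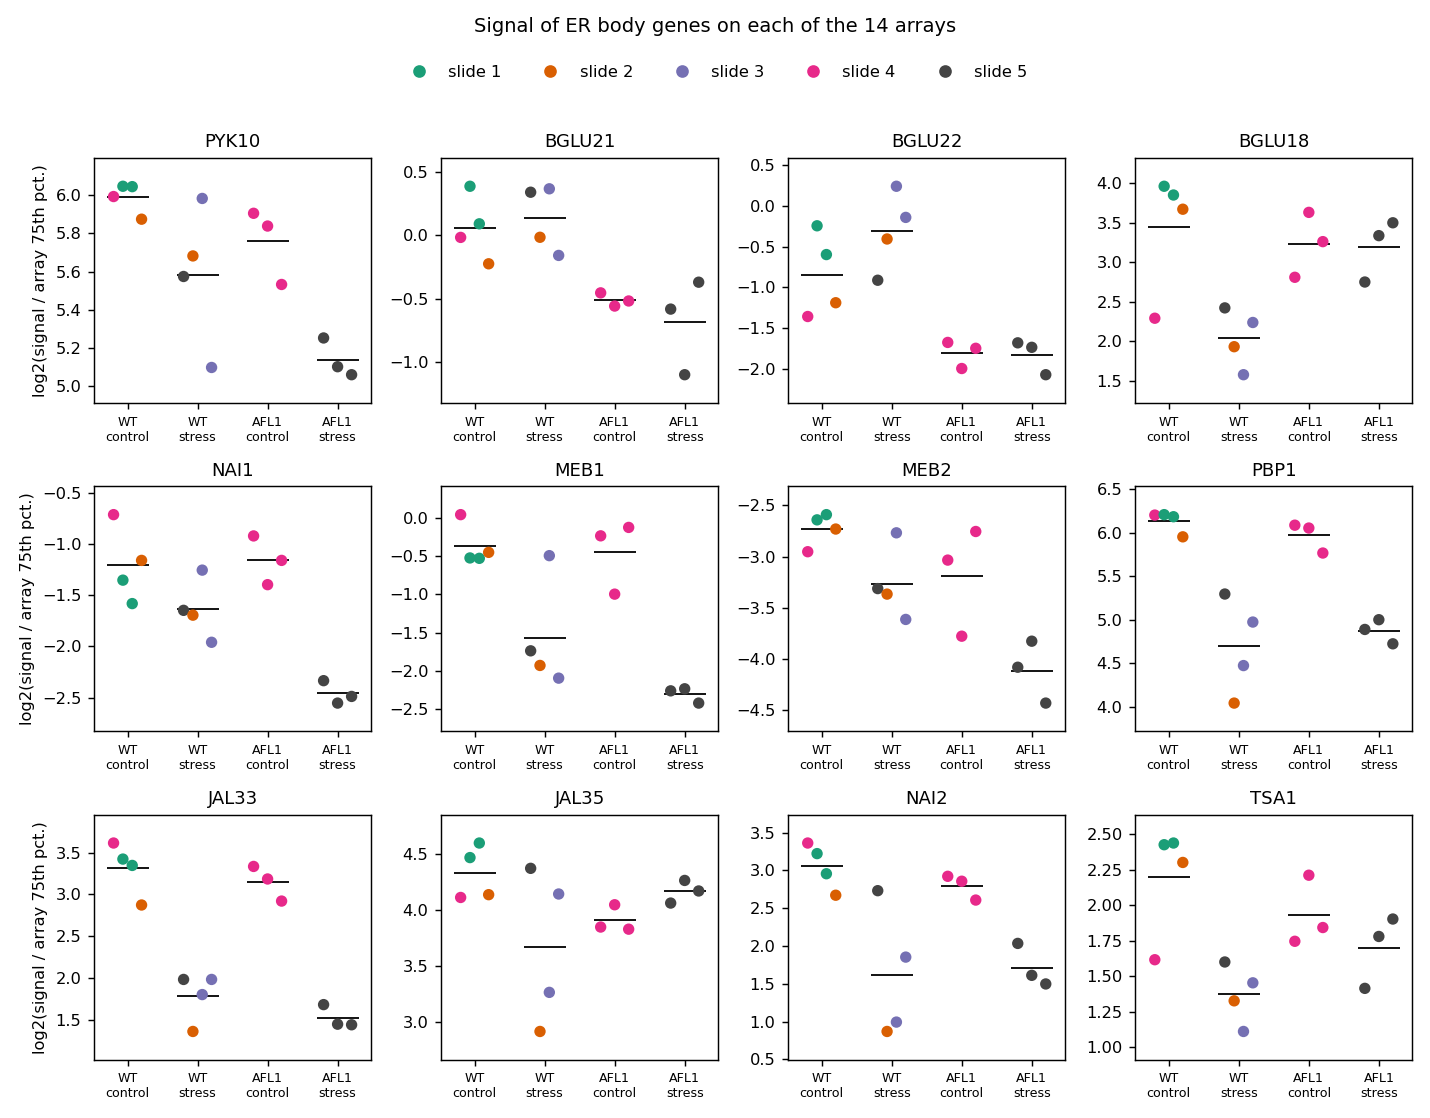
Relative log2 signal (vertical axis, a separate scale for each gene) of the 10 genes and of NAI2 and TSA1 on every array, by genotype and treatment. Points are arrays, coloured by slide, and bars are group means; JAL33 and PBP1 lie lower at low water potential on every array of both genotypes, and the BGLU18 signal of wild-type control replicate 1 (2.29) lies apart from the other wild-type controls (3.67 to 3.96).

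NAI1, the regulator of the system, had 1 probe. Its relative log2 signal in replicates 1 to 4 was -0.71, -1.35, -1.58 and -1.16 in wild-type controls and -1.65, -1.69, -1.25 and -1.96 at low water potential. The wild-type groups overlapped, through stress replicate 3. In 35S:YFP-AFL1 NAI1 was at -0.92, -1.40 and -1.16 in controls and at -2.33, -2.55 and -2.49 at low water potential, with no overlap. The log2 difference was -0.44 (SE 0.19, adjusted p = 0.0608) in wild type and -1.30 (SE 0.22, adjusted p = 0.000184) in 35S:YFP-AFL1, where NAI1 fell to a level 2.46-fold lower. With the slide as a block the latter was -0.90 (adjusted p = 0.206). Wild-type NAI1 was called lower without control replicate 3 (log2 difference -0.56, adjusted p = 0.0236) and without stress replicate 3 (-0.57, adjusted p = 0.021).

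PYK10, the main β-glucosidase of ER bodies in seedlings and roots, was measured by 7 probes, of which the brightest stands for the gene. That probe was at 5.99, 6.05, 6.05 and 5.88 relative log2 signal in wild-type controls and at 5.57, 5.68, 5.98 and 5.10 at low water potential. Only stress replicate 3 reached the range of the controls. In 35S:YFP-AFL1 the values were 5.91, 5.84 and 5.53 in controls and 5.25, 5.10 and 5.06 at low water potential, with every stressed array below every control. PYK10 fell in both genotypes, by a log2 difference of -0.41 (SE 0.16, adjusted p = 0.0414) in wild type and -0.62 (SE 0.19, adjusted p = 0.0104) in 35S:YFP-AFL1. The wild-type call was lost on leaving out any of 9 of the 14 arrays in turn. It was also lost with the slide as a block, at -0.19, the difference within slide 2 with 1 array of each treatment. In 35S:YFP-AFL1 the slide block gave -0.396 (adjusted p = 0.616). Both PYK10 calls were lost with other scalings between arrays. Centring on the median gave -0.25 (adjusted p = 0.201) and -0.42 (adjusted p = 0.0666), and quantile normalization gave 0.00082 and -0.21 (adjusted p = 0.245).

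The 7 PYK10 probes agreed on the direction and not on the size. Across them the wild-type log2 difference ran from -1.16 to -0.23, with 6 of the 7 called lower, and the 35S:YFP-AFL1 difference ran from -0.81 to -0.48, with 4 called lower. Of all probes tested, 32.8% and 32.3% were called lower in these comparisons. The widest disagreement lay on wild-type stress replicates 2 and 3. There probes A_84_P810242, A_84_P810251 and A_84_P861135, picked out after their values were seen, were at 3.53, 3.13 and 2.59 relative log2 signal on replicate 2, against 5.08, 5.13 and 4.54 on replicate 1. Replicate 4 had them at 4.91, 4.22 and 3.60. On replicate 3 the same probes were at 3.61, 3.47 and 2.99. The brightest probe did not show this: it was at 5.57 on stress replicate 1, 5.68 on replicate 2 and 5.98 on replicate 3. PBP1, JAL35 and NAI2 had probes that were low on the same 2 arrays beside probes that were not, as described with those genes. Among the wild-type controls the same 3 PYK10 probes were lowest on replicate 4, at 4.84, 4.59 and 3.43. The brightest PYK10 probe was lowest there too, at 5.88. Probe positions along the transcripts were not used here, and what sets the probes apart was not tested. The mean of the 7 probes gave a wild-type log2 difference of -0.68.

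**Figure D2:**
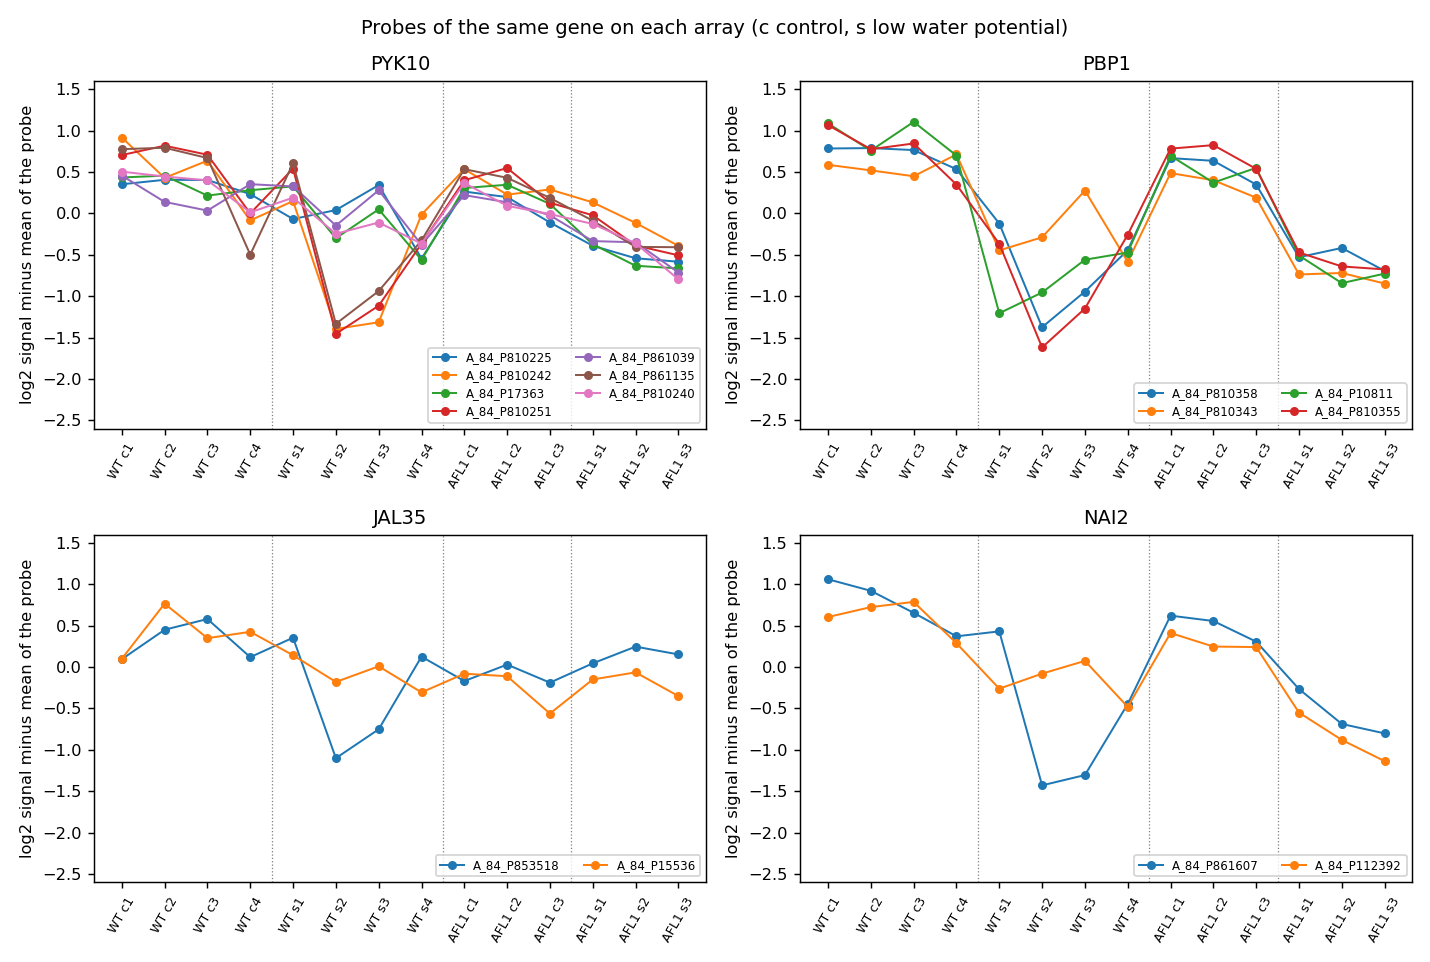
Log2 signal of each probe of PYK10, PBP1, JAL35 and NAI2 minus the mean of that probe over the 14 arrays (vertical axis), by array; lines join the values of 1 probe, and dotted lines part the groups. On wild-type stress replicates 2 and 3 (WT s2 and WT s3) 3 of the 7 PYK10 probes and 1 of the 2 NAI2 probes lie far below the other probes of the same gene.

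BGLU21 and BGLU22 are close relatives of PYK10 expressed in roots and are neighbouring genes, with 0 genes between them in the TAIR10.1 gene table. BGLU21 was at -0.015, 0.39, 0.092 and -0.22 relative log2 signal in wild-type controls and at 0.34, -0.014, 0.37 and -0.16 at low water potential, so that the wild-type groups covered the same range. The 35S:YFP-AFL1 values were -0.45, -0.56 and -0.52 in controls and at -0.58, -1.10 and -0.37 at low water potential, again with overlap. Every 35S:YFP-AFL1 array was below every wild-type array of its treatment. The log2 difference of BGLU21 between treatments was 0.074 in wild type, with a 95% confidence interval of -0.31 to 0.46, and -0.17 in 35S:YFP-AFL1, with an interval of -0.62 to 0.27.

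BGLU22 was at -1.36, -0.24, -0.60 and -1.19 relative log2 signal in wild-type controls and at -0.91, -0.41, 0.24 and -0.14 at low water potential. Stress replicates 3 and 4 were above every wild-type control, and replicates 1 and 2 lay among the controls. In 35S:YFP-AFL1 it was at -1.68, -1.995 and -1.75 in controls and at -1.68, -1.74 and -2.07 at low water potential, which is the same range. The log2 difference between treatments was 0.54 (95% confidence interval -0.029 to 1.11, adjusted p = 0.0884) in wild type and -0.023 (interval -0.68 to 0.64) in 35S:YFP-AFL1. Centring the arrays on their median made the wild-type value 0.70 and a call for higher signal, and so did leaving out wild-type control replicate 2 (0.74) or stress replicate 1 (0.74). These coding sequences resemble each other and that of PYK10, and whether a probe also bound transcripts of a relative was not checked here, so the values of these genes are uncertain in that respect.

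BGLU18 had 3 probes. The brightest was at 2.29, 3.96, 3.85 and 3.67 relative log2 signal in wild-type controls and at 2.42, 1.93, 1.58 and 2.24 at low water potential. The groups overlapped through control replicate 1 alone, the array that shares slide 4 with the 35S:YFP-AFL1 controls. In 35S:YFP-AFL1 BGLU18 was at 2.81, 3.63 and 3.26 in controls and at 2.75, 3.34 and 3.501 at low water potential, with the ranges nearly the same. BGLU18 fell in wild type by a log2 difference of -1.40 (SE 0.34, adjusted p = 0.00283), 2.65-fold, and the other probes gave -1.51 and -1.63. In 35S:YFP-AFL1 the difference was -0.039, with a 95% confidence interval of -0.89 to 0.82.

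The fall of BGLU18 in wild type differed between scan days. On scan day 1, with 1 stressed and 3 control arrays, the log2 difference was -1.90, and within slide 2, with 1 array each, it was -1.74. On scan day 2 the 3 stressed arrays stood against control replicate 1 only, and the difference was -0.21. Without control replicate 1 and stress replicate 1 it was -1.92.

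TSA1 (AT1G52410) lies next to BGLU18, with 0 genes between them, and is a homologue of the ER body protein NAI2. Its relative log2 signal in wild type was 1.62, 2.43, 2.44 and 2.30 in controls and 1.6, 1.33, 1.11 and 1.45 at low water potential. Control replicate 1 was again the lowest of its group, and no stressed array reached it. TSA1 fell by a log2 difference of -0.82 (SE 0.20, adjusted p = 0.00234) in wild type. In 35S:YFP-AFL1 it was at 1.75, 2.21 and 1.84 in controls and at 1.41, 1.78 and 1.90 at low water potential, a log2 difference of -0.23 (adjusted p = 0.38) with overlapping groups.

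MEB1 and MEB2 are proteins of the ER body membrane that resemble metal transporters of the vacuole. MEB1 was at 0.043, -0.52, -0.53 and -0.45 relative log2 signal in wild-type controls and at -1.74, -1.93, -0.49 and -2.09 at low water potential. All stressed wild-type arrays but replicate 3 were below the controls. The 35S:YFP-AFL1 seedlings had it at -0.23, -0.996 and -0.12 in controls and at -2.26, -2.23 and -2.42 at low water potential, with no overlap. MEB1 fell in both genotypes, by a log2 difference of -1.20 (SE 0.31, adjusted p = 0.00391), 2.30-fold, in wild type and -1.85 (SE 0.35, adjusted p = 0.000481), 3.61-fold, in 35S:YFP-AFL1. With the slide as a block neither was a call, at -1.48 and -1.55, the former being the difference within slide 2 with 1 array of each treatment.

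MEB2 was at -2.95, -2.64, -2.59 and -2.73 relative log2 signal in wild-type controls and at -3.31, -3.37, -2.77 and -3.62 at low water potential, where replicate 3 lay among the controls. In 35S:YFP-AFL1 it was at -3.04, -3.78 and -2.76 in controls and at -4.08, -3.83 and -4.44 at low water potential. The 35S:YFP-AFL1 groups did not overlap, but MEB2 was well above background on 1 of the 3 stressed arrays. The log2 difference was -0.54 (SE 0.23, adjusted p = 0.0549) in wild type and -0.93 (SE 0.26, adjusted p = 0.0079) in 35S:YFP-AFL1. With the slide as a block the latter was -1.20 (adjusted p = 0.273). The other MEB2 probe, A_84_P146458, was well above background on 4 wild-type controls, 2 stressed wild-type arrays, 2 35S:YFP-AFL1 controls and 0 stressed 35S:YFP-AFL1 arrays. It therefore gives only an approximate bound in 35S:YFP-AFL1, 1.19-fold lower under stress (limma adjusted p of the fit 0.000407). For this bound the probe was set, on each stressed array, no lower than the dimmest probe that was well above background there. The controls entered as measured, also where the probe was not well above background, and the spread was not taken into account.

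PBP1 is the lectin first found as a binding partner of PYK10, and it sits in the cytosol until cells are damaged. Its relative log2 signal in wild type was 6.21, 6.21, 6.19 and 5.96 in controls and 5.30, 4.05, 4.48 and 4.98 at low water potential. Every stressed array was below every control, and the stressed arrays were spread more widely. With the transgene PBP1 was at 6.09, 6.06 and 5.77 in controls and at 4.89, 5.003 and 4.73 at low water potential, with no overlap. PBP1 fell by a log2 difference of -1.44 (SE 0.22, adjusted p = 6.01e-05) in wild type and -1.10 (SE 0.25, adjusted p = 0.00178) in 35S:YFP-AFL1, 2.71-fold and 2.14-fold. All 4 PBP1 probes were called lower in both genotypes, at -1.71 to -0.83 in wild type and -1.31 to -1.10 in 35S:YFP-AFL1. Probe A_84_P810355 was at 1.35 and 1.82 on wild-type stress replicates 2 and 3 and at 2.60 and 2.71 on replicates 1 and 4. The brightest probe was also lowest on replicates 2 and 3. Probe A_84_P810343 was not, at 5.02 and 5.58 there and 4.86 and 4.72 on replicates 1 and 4. With this probe the wild-type fall was the smaller one, -0.83 against -1.13 with the transgene. Probe A_84_P10811 was at 2.58 and 2.98 on replicates 2 and 3 and at 2.33 and 3.065 on replicates 1 and 4. Its wild-type fall was the larger one, -1.71 against -1.23, so the order of the genotypes depended on the probe.

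JAL33, another jacalin-related lectin of the PYK10 complex, lies 3 genes away from PBP1. It was at 3.61, 3.42, 3.35 and 2.87 relative log2 signal in wild-type controls and at 1.98, 1.36, 1.802 and 1.98 at low water potential. With the transgene it was at 3.33, 3.18 and 2.92 in controls and at 1.68, 1.45 and 1.44 at low water potential. On these values, of the brightest probe, neither genotype showed overlap, and the spread within each group was small beside the difference. JAL33 fell by a log2 difference of -1.53 (SE 0.18, adjusted p = 6.08e-06), 2.89-fold, in wild type and -1.62 (SE 0.21, adjusted p = 1.41e-05), 3.08-fold, in 35S:YFP-AFL1. All 4 probes were called lower in both genotypes, at -1.555 to -0.86 in wild type and -1.83 to -1.50 in 35S:YFP-AFL1. With probe A_84_P219878 the wild-type groups overlapped, with stress replicate 3 at 1.79 and control replicate 4 at 1.73.

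JAL35, a lectin whose transcript is known to respond to jasmonate, lies 1 gene away from JAL33 and did not show that pattern. It was at 4.11, 4.47, 4.60 and 4.14 relative log2 signal in wild-type controls and at 4.37, 2.92, 3.27 and 4.15 at low water potential. Stress replicates 2 and 3 were low, and replicates 1 and 4 were within the range of the controls. In 35S:YFP-AFL1 JAL35 was at 3.85, 4.05 and 3.83 in controls and at 4.06, 4.27 and 4.17 at low water potential, where the stressed arrays were higher without overlap. The log2 difference was -0.65 (SE 0.27, adjusted p = 0.045) in wild type and 0.26 (SE 0.31, adjusted p = 0.481) in 35S:YFP-AFL1. The wild-type call was lost on leaving out any of 11 of the 14 arrays in turn, with differences from -0.89 to -0.40, the latter without stress replicate 2. The dimmer probe, A_84_P15536, was at 1.49 and 1.68 on wild-type stress replicates 2 and 3 and at 1.82 and 1.37 on replicates 1 and 4. It gave a wild-type log2 difference of -0.49, called lower in the fit of all probes (limma adjusted p = 0.019). In 35S:YFP-AFL1 it was at 1.59, 1.56 and 1.11 in controls and 1.52, 1.61 and 1.32 at low water potential, a difference of 0.062 with overlap.

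The probes of the 10 genes were counted as well. Probes of 1 gene measure the same transcript, so these counts are not separate evidence beside the gene counts. PYK10 had 7 of the probes, and PBP1 and JAL33 had 4 each. In wild type 22 of the 28 were called lower and 0 higher, where 32.8% of all probes were called lower. The 22 include MEB2 probe A_84_P146458, which was well above background on 2 of the 4 stressed wild-type arrays. In 35S:YFP-AFL1 17 were called lower, 1 of them the MEB2 probe not well above background there, and 0 higher, against 32.3% of all probes called lower. By the brightest probe of each gene, arrays did not overlap between treatments for 2 of the 10 genes in wild type. These were PBP1 and JAL33, both lower, where 27.4% of all genes were lower without overlap. In 35S:YFP-AFL1 6 of the 10 were lower without overlap, against 39.5% of all genes, and JAL35 alone was higher, against 37%. The dimmer JAL35 probe overlapped there.

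**Figure D3:**
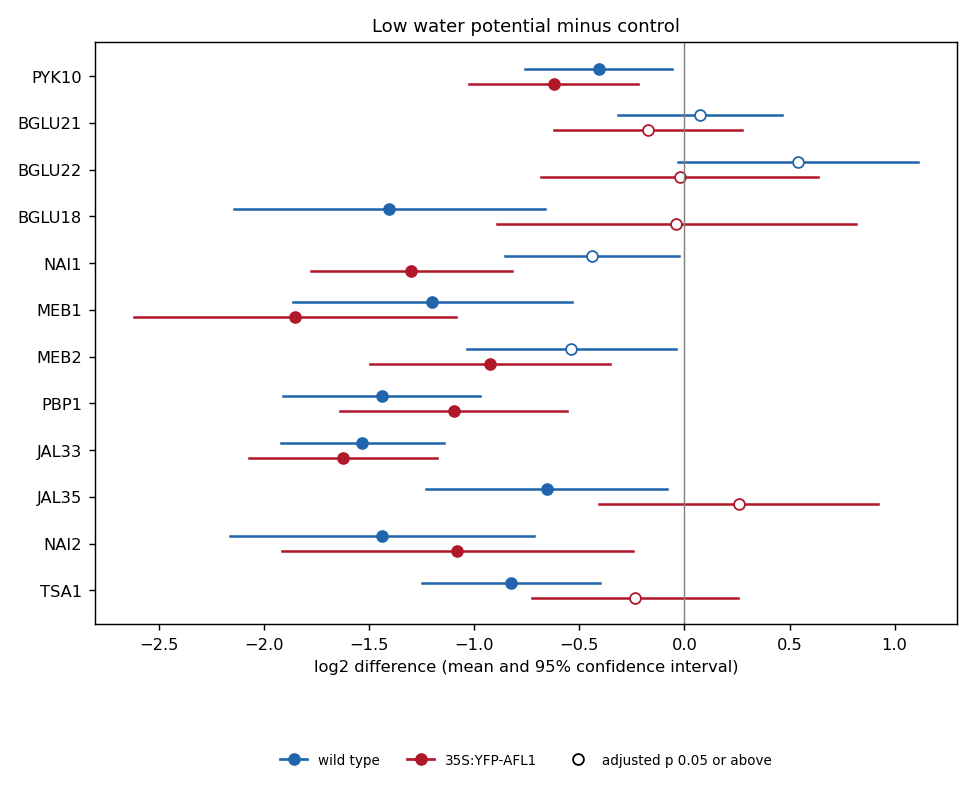
Log2 difference between low water potential and control (horizontal axis) of the 10 genes, NAI2 and TSA1 in wild type (blue) and 35S:YFP-AFL1 (red); points are limma estimates, bars 95% confidence intervals, and filled points are called. JAL33 lies near -1.53 and -1.62 in the 2 genotypes, and BGLU18 lies at -1.40 (blue) and -0.039 (red).

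Other genes of the ER body system and its relatives were taken from a list of 23, of which 18 were tested. In wild type 12 of the 18 were called lower and 0 higher, with a median log2 difference of -0.92, where 33.4% of all genes were called lower and the median over all genes was -0.032. In 35S:YFP-AFL1 9 were called lower and 0 higher, with a median of -0.66, against 33.3% and -0.036. NAI2 (AT3G15950), the ER body protein needed to form these compartments, fell by a log2 difference of -1.44 (SE 0.33, adjusted p = 0.002) in wild type and -1.08 (SE 0.39, adjusted p = 0.0258) in 35S:YFP-AFL1. With the arrays centred on their median NAI2 was no longer called in 35S:YFP-AFL1 (-0.88, limma adjusted p = 0.0589). Its brightest probe was at 0.87 and 0.99 relative log2 signal on wild-type stress replicates 2 and 3 and at 2.73 and 1.85 on replicates 1 and 4. The other NAI2 probe was at 1.51 and 1.66 on replicates 2 and 3 and at 1.32 and 1.103 on replicates 1 and 4, and was called lower in both genotypes too.

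GLL22 and GLL23, GDSL lipase-like proteins found in the PYK10 complex, had the lowest log2 differences of the list in both genotypes. GLL22 fell by a log2 difference of -3.22, 9.35-fold, in wild type. In 35S:YFP-AFL1 it fell by -3.67, 12.7-fold. GLL23 fell by -3.43 and -4.33, which are 10.74-fold and 20.2-fold. Their relative GLL25, needed for the organisation of the endoplasmic reticulum, fell by -0.37 and -0.53. Among further jacalin-related lectins JAL22 (-0.94 and -0.93) and JAL34 (-1.08 and -1.41) were called lower in both genotypes, and JAL23 (-0.90) and JAL32 (-0.96) in wild type, with -0.45 and -0.31 in 35S:YFP-AFL1 not called. JAL31 was not called in either. The myrosinases TGG1 and PEN2, which cleave glucosinolates, were called lower in both genotypes, TGG1 at -1.26 and -0.98 and PEN2 at -0.80 and -0.69. TGG2 was at -1.01 in wild type, called lower, and at -0.62 in 35S:YFP-AFL1, not called. NSP4, a nitrile-specifier protein that redirects glucosinolate breakdown, was at 0.39 in wild type, not called, and at -0.96 in 35S:YFP-AFL1, called lower. BGLU19, BGLU33, NSP1 and NSP3 were not called in either genotype.

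**Figure D4:**
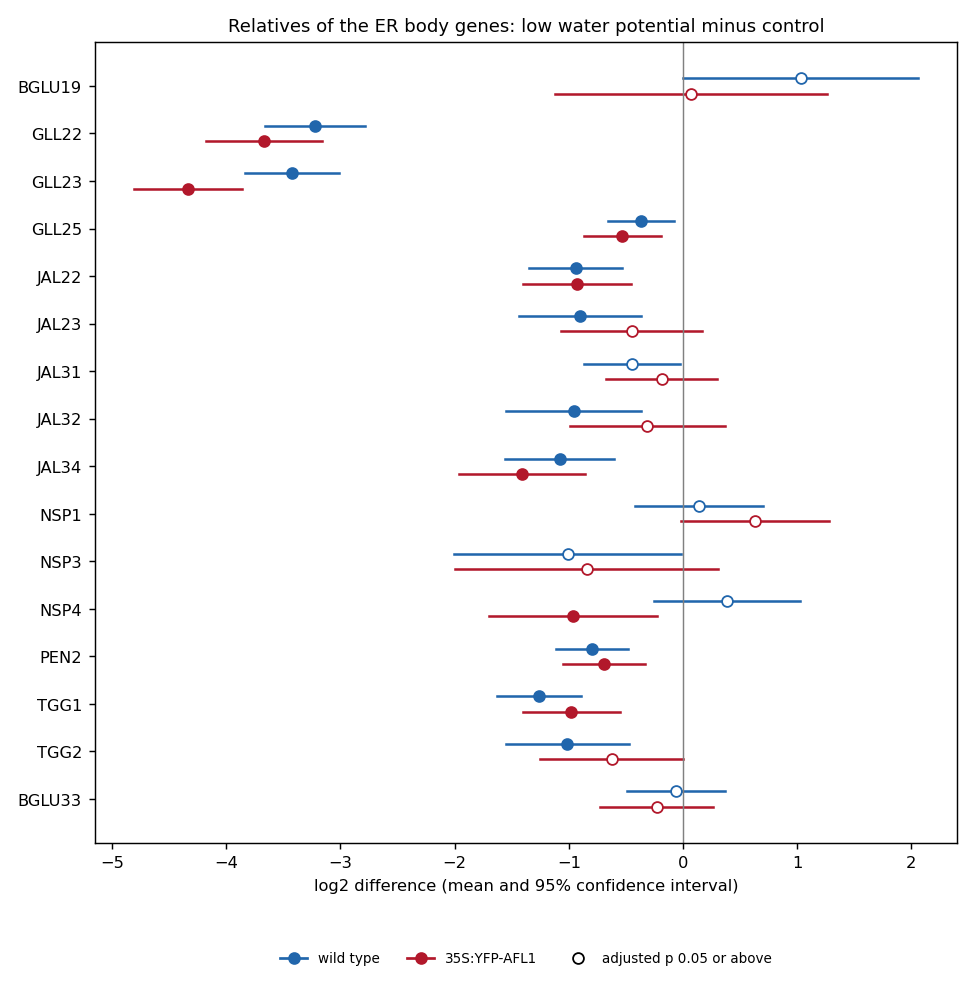
Log2 difference between low water potential and control (horizontal axis) of the 16 tested genes of the list other than NAI2 and TSA1, drawn as limma estimates with 95% confidence intervals and filled where called. GLL22 and GLL23 lie between -4.33 and -3.22, and the other called genes between -1.41 and -0.37.

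Whole seedlings hold both roots and shoots, and in such samples fewer cells of a type and less RNA per cell cannot be told apart. Of 11 shoot markers (photosynthesis, leaf side and stomatal genes) 10 were tested, and 9 were called lower at low water potential in each genotype, where 33.4% and 33.3% of all genes were. Their summed linear signal, in units of the array's 75th percentile, was 583.1 to 657 in wild-type controls and 211.2 to 335.6 under stress, and 557.8 to 599.8 and 194.8 to 242.9 in 35S:YFP-AFL1. Of 14 root markers 11 were tested. In wild type 3 were called higher and 4 lower, in 35S:YFP-AFL1 2 higher and 5 lower, where 30.7% and 30.1% of all genes were called higher, and the sum was 5.04 to 9.05 over all arrays. A few bright genes set these sums. In wild-type controls RBCS1A, CAB1, CA1 and PSBO1 had mean linear signals of 72.45 to 243.2, and no other shoot marker was above 1.095. SULTR1;2, PHO1, SHR and COBL9 were at 0.804 to 1.715 there, and no other root marker was above 0.467. The part of the shoot and root shifts in the results was not tested.

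On control plates none of the 10 genes was called between the genotypes (limma), where 0.0218% of all genes, 4 of 18309, were called. At an unadjusted p under 0.05 there were 2 of the 10, BGLU21 and BGLU22, and 11.3% of all genes. The median log2 difference, 35S:YFP-AFL1 minus wild type, was -0.22 for the 10 and 0.020 for all genes. BGLU21, BGLU22 and JAL35 were lower in 35S:YFP-AFL1 with no overlap of arrays, as 6.73% of all genes were. The log2 differences of BGLU21 and BGLU22 were -0.57 (95% confidence interval -0.99 to -0.15, adjusted p = 0.28) and -0.96 (interval -1.58 to -0.34, adjusted p = 0.217). Within slide 4, against wild-type control replicate 1 alone, they were -0.49 and -0.45. Of the 11 root markers tested 0 were called, and their median log2 difference was -0.41. EXPA7 (-1.38), CASP1 (-0.86), SULTR1;2 (-0.80) and MYB36 (-0.55) were lower in 35S:YFP-AFL1 without overlap, EXPA7 being well above background on 1 of the 3 35S:YFP-AFL1 arrays. The other root markers overlapped between the genotypes. They were RHD6 (-0.59), PHT1;1 (-0.41), SHR (-0.058), HKT1 (-0.053), SCR (0.041), COBL9 (0.053) and PHO1 (0.41). The summed root signal was 5.73 to 7.25 on wild-type controls and 5.04 to 6.275 on 35S:YFP-AFL1 controls, with overlap. The mean relative log2 signal of the root markers was -1.54 to -1.17 on wild-type controls and -1.95 to -1.56 on 35S:YFP-AFL1 controls, without overlap. Their part in the result was not tested.

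At low water potential BGLU21 and BGLU22 were called lower in 35S:YFP-AFL1 and 0 of the 10 higher, where 1.69% of all genes were called lower and 0.475% higher. The values of every array are given above: BGLU22 ran from -0.91 to 0.24 relative log2 signal in stressed wild type and from -2.07 to -1.68 in stressed 35S:YFP-AFL1. BGLU21 ran from -0.16 to 0.37 and from -1.10 to -0.37. Neither gene overlapped between the genotypes. The log2 difference was -1.52 (SE 0.29, adjusted p = 0.0203), 2.88-fold, for BGLU22 and -0.82 (SE 0.19, adjusted p = 0.0491), 1.76-fold, for BGLU21. The second BGLU21 probe gave -0.85. In the fit of all probes neither BGLU21 probe was called (limma adjusted p = 0.0603 for the brightest and 0.0589 for the second). The BGLU21 call was lost on leaving out any of 12 of the 14 arrays in turn. The BGLU22 call was lost without wild-type stress replicate 3 (-1.34), 35S:YFP-AFL1 stress replicate 2 (-1.57) or 35S:YFP-AFL1 stress replicate 3 (-1.40).

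Within slide 5, against wild-type stress replicate 1 alone, the log2 difference was -0.92 for BGLU22 and -1.02 for BGLU21, and with the slide as a block neither was a call. Within scan day 2, with 3 arrays of each genotype, the differences were -1.56 and -0.87, again without a call. Of the 11 root markers tested 2 were called lower in stressed 35S:YFP-AFL1, the endodermis genes CASP1 (-1.46) and MYB36 (-1.22), 0 were called higher, and the median was -0.18. The root hair genes RHD6 (-1.46) and EXPA7 (-1.34) were not called and did not overlap; they were well above background on 2 and 1 of the 3 stressed 35S:YFP-AFL1 arrays. The other 7 markers, among them SCR (0.18) of the endodermis and COBL9 (0.15) of root hairs, lay between -0.20 and 0.18 and were not called. The summed root signal was 5.39 to 9.05 in stressed wild type and 5.58 to 6.19 in stressed 35S:YFP-AFL1. The mean relative log2 signal of the markers was -1.75 to -1.33 and -2.16 to -1.95, without overlap. Their part in the result was not tested. NSP4 (-2.27) and GLL23 (-1.03) were the called genes among the 18 relatives.

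At low water potential 5 of the 10 genes, BGLU21, BGLU22, NAI1, MEB1 and MEB2, were lower in 35S:YFP-AFL1 with no overlap of arrays, as were 8.14% of all genes. BGLU18 was higher without overlap, as were 6.41%. NAI1 differed by -0.82 (95% confidence interval -1.27 to -0.37, adjusted p = 0.0611), MEB1 by -0.74 (adjusted p = 0.234), MEB2 by -0.85 (adjusted p = 0.091) and BGLU18 by 1.15 (interval 0.36 to 1.95, adjusted p = 0.117), none of them a call. NAI1 was called lower with normexp background correction (-0.64, adjusted p = 0.0457) and MEB2 with the mean of its probes (-1.18, adjusted p = 0.0305), which takes in its probe not well above background in stressed 35S:YFP-AFL1. The other MEB1 probe, called lower at -1.32 where 1.19% of all probes were, was well above background on 1 of the 3 stressed 35S:YFP-AFL1 arrays. The other MEB2 probe was well above background on none of them and gave an approximate bound of 1.02-fold lower (limma adjusted p of the fit 0.0305). For it the stressed wild-type arrays entered as measured, and the probe was well above background on 2 of these 4. PYK10 (-0.45), PBP1 (0.17), JAL33 (-0.26) and JAL35 (0.49) were not called, and their arrays overlapped. Their probes disagreed in sign for PYK10 (-0.49 to 0.52, mean of probes -0.093), PBP1 (-0.51 to 0.25) and JAL35 (-0.11 to 0.49), and not for JAL33 (-0.85 to -0.26). Without wild-type stress replicate 1, the array on slide 5, 5 of the 10 were called, among them NAI1 (-0.82), MEB2 (-0.87) and BGLU18 (1.28), and the calls over all genes rose from 397 to 3523. Without wild-type stress replicate 4 it was 4 of the 10, and 394 of all genes.

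**Figure D5:**
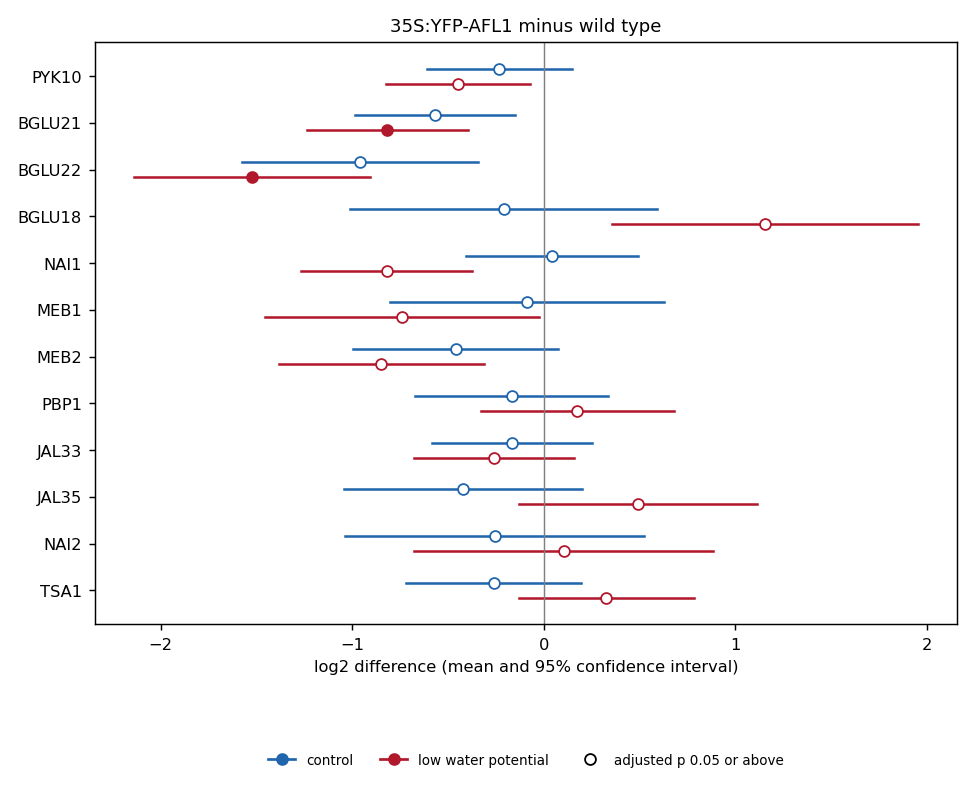
Log2 difference, 35S:YFP-AFL1 minus wild type (horizontal axis), of the 10 genes, NAI2 and TSA1 on control plates (blue) and at low water potential (red); points are limma estimates, bars 95% confidence intervals, and filled points are called. BGLU22 lies at -0.96 and -1.52 and BGLU18 at -0.21 and 1.15.

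The responses of the genotypes were set against each other in an interaction term, the log2 difference between treatments in 35S:YFP-AFL1 minus that in wild type. None of the 10 genes and 0% of all genes were called with limma. At an unadjusted p under 0.05 there were 3 of the 10, BGLU18, NAI1 and JAL35, and 9.73% of all genes. BGLU18 had an interaction of 1.36 (95% confidence interval 0.23 to 2.50, adjusted p = 0.426), NAI1 of -0.86 (interval -1.49 to -0.23, adjusted p = 0.361) and JAL35 of 0.91 (interval 0.035 to 1.79, adjusted p = 0.499). The BGLU18 value rested on which wild-type controls it was set against. It was 0.17 within scan day 2, -0.17 with the slide as a block, and 1.88 without wild-type replicate 1 of both treatments. That omission was chosen after seeing the data, and it takes out the wild-type arrays on slides 4 and 5. With it BGLU18 (limma adjusted p = 0.0113) and NAI1 (-1.03, adjusted p = 0.0456) were called together with others of the 18309 genes, 1173 in all. The JAL35 interaction also changed sign with the slide as a block, and its dimmer probe gave 0.56. NAI1 differed between the genotypes by -0.45 within slide 4 (control) and -0.81 within slide 5 (low water potential), each against 1 wild-type array. The interval of JAL33, -0.68 to 0.50, and that of PYK10, -0.75 to 0.32, held 0.

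The tested genes most like PYK10 and BGLU18 were found by Pearson correlation of relative log2 signal over the 14 arrays, which share the treatment difference and the slides, and are given as a description. For PYK10 they were AT1G03210 (r = 0.954), RABA6a (0.94), AT1G16670 (0.936), AT1G77885 (0.935) and ALE2 (0.932), with none of the other 9 genes among them. For BGLU18 they were HCAR (0.953), its neighbour TSA1 (0.939), AT5G59990 (0.919), AT5G61290 (0.917) and AT2G37890 (0.903). The log2 differences between treatments of HCAR, which acts in the chlorophyll cycle, were -0.49 for wild type and -0.09 for 35S:YFP-AFL1. Those of AT5G61290 were -0.93 and -0.14.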

How the data were processed

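Per the sample records, Agilent Feature Extraction 10.7.1.1 gave the spot intensity values with background subtracted. The deposited value table held the same linear intensity values (largest relative difference 5e-04, column medians 152.5 to 320.5), not centred. Each signal was divided here by the 75th percentile of its array (non-control spots) and taken to log2. Probes were matched to loci by transcript accession through the TAIR10.1 gene table, used for names and neighbours (34358 of 43603 probes, 78.8%). A probe was kept if 3 or more arrays of a group had it well above background (59.5% to 67% of probes were on an array), and the brightest kept probe stood for a gene. Comparisons used limma 3.58.1 (R 4.3.3) in 1 fit of 4 group means to 14 arrays (10 residual degrees of freedom), tested on simulated data. The number of arrays limits the precision. Background alternatives used normexp (offset 50) on median spot signals, since no mean signal was used. The 10 genes, the list of relatives and the markers were chosen with earlier results of these data known. All 10, called relatives, NAI2, TSA1 and the 5 genes most like PYK10 and BGLU18 are named. Replicate numbers were not taken as pairs, so comparisons were made without a replicate block.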

Additional observations from a re-analysis of the deposited data

Results flagged for a closer look

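Among the 24 groups of 4 wild-type arrays examined (12 genes in 2 treatments), 3 had an array set apart from the others by Dixon's test at the 95% level; chance alone flags some groups among 24. MEB1 in wild-type control replicate 1 was at 0.043 relative log2 signal, where the other controls were at -0.53 to -0.45. TSA1 was at 1.616 on the same array, where the others were at 2.30 to 2.44. PBP1 in wild-type control replicate 4 was at 5.955, where the others were at 6.19 to 6.21. Groups of 3 arrays were not examined in this way.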

How the results depend on the processing

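Centring on the median raised the median difference of all genes by 0.16 (wild type) and 0.204 (35S:YFP-AFL1), and of the calls in 35S:YFP-AFL1 58.14% were then for higher signal, against 47.46%. It turned the 35S:YFP-AFL1 stress responses of BGLU18 (0.17), BGLU21 (0.030) and BGLU22 (0.18); quantile normalization turned those of BGLU18 (0.054) and BGLU22 (0.13), and that of PYK10 in wild type (0.00082). The mean of all probes turned the PYK10 interaction (0.053). For the genotype difference at low water potential, 1 gene was called with quantile normalization, without a filter or with probes above background on all arrays, 0 with the compared groups alone, the slide block or scan day 2, and 3 with normexp (NAI1 added) or the mean of all probes (MEB2 added).

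The slide block left 2 calls in 35S:YFP-AFL1 (PBP1 and JAL33) and turned its responses of BGLU22 (0.31) and JAL35 (-1.22), the control differences of BGLU18 (0.94) and NAI1 (-0.45), the low water potential differences of PBP1 (-0.42) and JAL35 (-0.21), and the interactions of BGLU18 (-0.17), PBP1 (-0.19), JAL33 (0.0081) and JAL35 (-0.0026). The scan day block turned BGLU18 (0.31) and NAI1 (-0.23) in control and the JAL33 interaction (0.15), and scan day 2 alone BGLU18 (0.94), NAI1 (-0.45), PBP1 (-0.043) and JAL33 (0.069). Same-numbered arrays deviated together at -0.117 to 0.397 in wild type and 0.021 to 0.148 in 35S:YFP-AFL1, and not every array correlated best with its own number; the replicate block gave 5, 6, 0, 2 and 0 calls and turned NAI1 in control (-0.0036). Without wild-type replicate 1 of both treatments, chosen after seeing the data, the counts were 1 (control), 5 (low water potential) and 2 (interaction), with BGLU21 in wild type at -0.020 and MEB1 in control at 0.049. The cause of these changes was not tested.

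Leaving out each array in turn gave 4 to 7 calls in wild type, 6 in 35S:YFP-AFL1, 0 to 5 at low water potential, and 0 in control and for the interaction. Differences that changed sign ranged from -0.021 to 0.18 (BGLU21 in wild type), -0.25 to 0.18 (BGLU18), -0.33 to 0.034 (BGLU21) and -0.12 to 0.098 (BGLU22) in 35S:YFP-AFL1, -0.59 to 0.0027 (BGLU18), -0.084 to 0.21 (NAI1) and -0.25 to 0.19 (MEB1) in control, -0.043 to 0.37 (PBP1) at low water potential, and -0.23 to 0.056 (JAL33) for the interaction. Over all genes, calls at low water potential were 397, and 620 with normexp, 237 without a filter, 187 above background on all arrays, 1 with the compared groups alone, 62 with the slide block, 252 with the scan day block, 1 on scan day 2 and 199 with the replicate block. Without wild-type stress replicate 1 they were 3523, and 12 without 35S:YFP-AFL1 stress replicate 3, the lowest of the single omissions. Calls in control were 4, and 34 with the slide block, 18 on scan day 2, 7 with quantile normalization, 1 above background on all arrays or with the scan day block, 2 with the replicate block and 2 to 536 on omitting an array, highest without wild-type control replicate 1. Calls for the interaction were 0, and 20 with the slide block, 11 on scan day 2, 4 above background on all arrays and up to 754 on omitting an array, without wild-type stress replicate 1. Omitting wild-type replicate 1 of both treatments gave 1399 in control, 4148 at low water potential and 1173 for the interaction. Stress calls were 6565 in 35S:YFP-AFL1 with the slide block (11592 otherwise) and 7683 in wild type on scan day 2 (11736).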
